A study of Danio rerio with 4 samples.

Results

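The levels of 10 of the 25432 genes in the files are described here across the cell classes and healing stages of zebrafish skin: the AP-1 subunits fosab, fosaa, fosb, fosl1a, jun, junba, junbb and jund, together with the immediate-early gene egr1 and the stress-response gene atf3. They were chosen by symbol, and all 10 were found. The samples were 3′ single-cell RNA libraries of wounds at 2, 4 and 6 days post wounding (dpw) and of unwounded skin, with 1 library per stage. Each library pooled skin from 3 adult wild-type zebrafish, and which wild-type strain entered which library is not given in the sources used here. Wounds were made with a laser and cut out with a 4 mm punch, whereas unwounded skin was scraped off. The deposited design gives wounds 2 mm across and the paper about 3 mm. Both are under the punch width, so wound libraries can also hold cells of the skin around the wound. All 4 samples were dissociated with Liberase for 1 h at 30 °C. The wounded fish carried no allele or agent beyond the wound, and the unwounded fish received no treatment.

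AP-1 is a family of dimeric transcription factors. A Fos protein needs a Jun partner to bind DNA, whereas Jun proteins can also pair with one another. Most fos, jun and egr genes are immediate-early genes: growth factors, cytokines, mechanical strain and cell damage switch them on within minutes through MAP kinases, without new protein synthesis, and the mRNAs decay quickly. In skin, AP-1 is known for its part in keratinocyte growth and differentiation and for being induced at wound edges, and in blood cells for its part in inflammatory gene expression. The same genes are also known to be switched on while tissue is digested into single cells. Induction in the skin and induction during dissociation cannot be told apart in these libraries, and the way of sampling (punch or scrape) cannot be told apart from wounding.

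After filtering, 29185 of 36239 cells were kept (5802 in unwounded skin, 7754 at 2 dpw, 7315 at 4 dpw and 8314 at 6 dpw), with a median of 3979 to 4190 UMIs per cell and 43307637 to 56867519 UMIs per library. A UMI (unique molecular identifier) marks 1 captured mRNA molecule. Median mitochondrial shares were 3.07%, 3.75%, 3.76% and 4.11% across unwounded skin and wounds of 2, 4 and 6 dpw, and any pair of libraries shared 17 to 27 cell barcodes. Cells were clustered without the 10 genes, and clusters were called by the marker genes they carried ("keratinocyte-like" and so on), while 11 of 42 clusters stayed unnamed and held 642 to 1078 cells per library. A Scrublet doublet score marked 1 cell in all and was therefore not used to remove doublets. Levels are UMIs per 1000000 UMIs (CPM) of all cells of a class in a library, with exact 95% Poisson intervals that cover counting error only. Because each stage is 1 library, the spread between fish is not known and no test was possible. A difference was called when it was at least 2-fold on at least 20 UMIs over both libraries, and the share of all genes that met the same rule is given beside each first count.

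The 10 genes were among the abundant transcripts of the skin: fosab, the zebrafish counterpart of c-Fos, ranked 156th of 23587 genes by its 221340 UMIs, and junba, a JunB gene, ranked 171st with 205288 UMIs. The other totals were 135415 UMIs for jun (c-Jun), 124314 for atf3, 73546 for jund (JunD), 68322 for fosb, 66796 for fosl1a (Fra-1), 54240 for egr1 and 20205 for junbb, the second JunB gene. The second c-Fos gene, fosaa, had 76 UMIs in all, with 18 UMIs in unwounded skin and 9, 22 and 27 UMIs at 2, 4 and 6 dpw. UMIs were counted at the 3′ end and not per gene length, and how well each transcript is captured was not measured, so the order of genes is an order of UMIs. Over all cells of a library the 10 genes together held 4781, 3317, 4671 and 5729 CPM across unwounded skin and wounds of 2, 4 and 6 dpw. The ratios to unwounded skin were 0.694, 0.977 and 1.2, and these whole-library values move with the mixture of cell classes as well as with the level within them. By the 2-fold rule, 1 of 10 genes was lower in the whole library at 2 dpw (fosaa; background 11.3% of genes) and 1 at 4 dpw (atf3, 0.443; background 10.9%), and none at 6 dpw (background 7.5%).

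The level of the 10 genes differed more between cell classes than between stages. Glia-like, endothelial-like and mural-like cells were highest, with 11430.3 to 18620.5, 8769 to 17219 and 4813 to 17494 CPM over the libraries with at least 50 such cells. Fibroblast-like cells followed with 5171 to 13429 CPM, mucous-like cells with 3984 to 5406 CPM and keratinocyte-like cells with 3370.4 to 4268 CPM. Blood cells were lowest: erythrocyte-like cells had 1337 to 2489.7 CPM, macrophage-like cells 1544 to 2225 CPM, neutrophil-like cells 881 to 2260.5 CPM, eosinophil-like cells 839 to 1391 CPM and T cell-like cells 647 to 1019 CPM. The ranges of glia-, endothelial-, mural- and fibroblast-like cells overlapped one another, and so did those of macrophage-, erythrocyte- and neutrophil-like cells. The ranges of keratinocyte- and macrophage-like cells did not overlap.

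**Figure D1:**
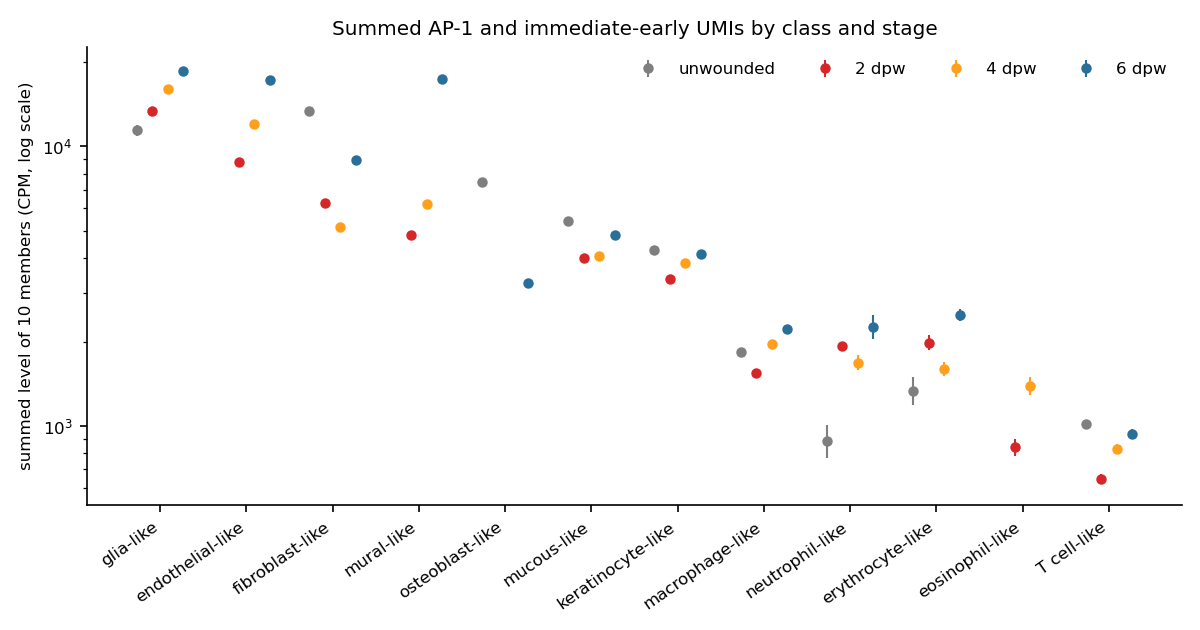
Summed level of the 10 genes (CPM, logarithmic axis) in each cell class with at least 50 cells, with 1 point per library in the order unwounded skin, 2, 4 and 6 dpw and bars for the exact 95% counting interval. Glia-, endothelial-, mural- and fibroblast-like cells lie above the keratinocyte-like range of 3370.4 to 4268 CPM, and T cell-like cells lie at 647 to 1019 CPM, lowest in the 3 wound libraries, whereas in unwounded skin neutrophil-like cells are lower with 881 CPM.

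The share of cells in which the genes were detected was compared after every cell was thinned to 500 UMIs. At least 1 of the 10 genes was detected in 86.5% to 98.2% of glia-like cells, 73.3% to 88.1% of fibroblast-like, 73.2% to 80.7% of keratinocyte-like, 42.1% to 51.6% of macrophage-like and 24.3% to 38.2% of T cell-like cells. The order was not that of the CPM for every class: mucous-like cells, above keratinocyte-like cells in CPM, had shares of 78.4%, 61.1%, 64.9% and 75.9% across unwounded skin and wounds of 2, 4 and 6 dpw, against 80.7%, 73.2%, 75.1% and 76.3% of keratinocyte-like cells. For fosab alone, the thinned shares in fibroblast-like cells were 59.3%, 36.6%, 38.3% and 51.6% across unwounded skin and wounds of 2, 4 and 6 dpw (unthinned 83.6%, 68.7%, 74.5% and 80.9%, at median depths of 4266, 9602, 10702 and 6179 UMIs). The lowest classes set the background for these shares: fosab was detected in 3.34% to 8.64% of T cell-like cells (unthinned 13.8% to 27.2%, median 1921 to 2297.5 UMIs) and 4.25% to 7.77% of erythrocyte-like cells (unthinned 9.52% to 12.4%, median 749.5 to 928 UMIs). Macrophage-like cells at 2 dpw, with 5.08% (unthinned 29.1%), were at that background.

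Fibroblast-like cells, the collagen-producing cells of the dermis, had less of every one of the 9 measurable genes in each wound library than in unwounded skin, and their sum was lowest at 4 dpw. Summed over the 10 genes they held 13429, 6284, 5171 and 8939 CPM across unwounded skin and wounds of 2, 4 and 6 dpw. The ratios to unwounded skin were 0.468 [0.462, 0.474], 0.385 [0.381, 0.389] and 0.666 [0.659, 0.673]. At 2 dpw 5 of 9 genes were at least 2-fold lower (background 11.9% of all genes tested), at 4 dpw 8 of 9 (background 18.4%) and at 6 dpw 1 of 9 (background 12.4%), and none was called higher (background 11.2%, 10.6% and 7.73%). The median log2 ratio of the 9 genes was -1.05, -1.45 and -0.50 at 2, 4 and 6 dpw, against 0.01, -0.19 and -0.17 for all genes tested. Much of the difference moved with the depth of the cells: with 4 ranges of UMIs per cell weighted equally, an alternative chosen after seeing the data, the ratios were 0.667, 0.792 and 0.827, and 1, 1 and 0 genes were called.

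Among the Fos genes, fosab held the most UMIs in fibroblast-like cells, with 4505, 1551, 1509 and 2803 CPM across unwounded skin and wounds of 2, 4 and 6 dpw. The 2 and 4 dpw libraries were nearly equal and lowest, and the ratios to unwounded skin were 0.344 [0.336, 0.353], 0.335 [0.328, 0.342] and 0.622 [0.611, 0.634]. Fosb, a close relative that forms AP-1 with the same partners, had 1261, 515, 462 and 719 CPM. Fosl1a, which is typically induced later than c-Fos and is itself an AP-1 target, had 992, 339.7, 279 and 496 CPM, with ratios of 0.343, 0.281 and 0.50. It was the single gene called at 6 dpw, just inside the 2-fold limit, and the nearest gene outside was fosb at 0.57. With equal UMI ranges the fosab ratios became 0.569, 0.795 and 0.807, and fosl1a at 2 dpw (0.459) was the gene that kept its call.

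Among the Jun genes, the 4 dpw library was again the low one for jun and the JunB pair. Jun had 2080.2, 1242, 825 and 1528 CPM across unwounded skin and wounds of 2, 4 and 6 dpw, with ratios of 0.597, 0.396 and 0.734. Junba had 1995, 1224, 951 and 1424 CPM, and junbb had 362, 158, 110.0 and 297 CPM. Jund, whose mammalian counterpart is present in most cells without stimulation, differed least: it had 606, 431, 436 and 543 CPM and ratios of 0.711, 0.719 and 0.895, never past 2-fold. The direction of jun at 4 dpw turned with equal UMI ranges, where its ratio was 1.015.

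The zinc finger factor egr1, which like fosab is induced through serum response factor, had 1068, 553, 454 and 754 CPM in fibroblast-like cells across unwounded skin and wounds of 2, 4 and 6 dpw. Atf3, a bZIP factor that pairs with Jun proteins and is induced by stress, was the gene with the lowest ratio at 4 dpw: it had 559.9, 271, 146 and 375 CPM, with ratios of 0.483 [0.453, 0.516], 0.261 [0.246, 0.278] and 0.670 [0.636, 0.707]. It was also the gene that stayed past 2-fold at 4 dpw with equal UMI ranges (0.485). Between successive wounds no gene was called from 2 to 4 dpw (background 5.65% higher and 10.6% lower), where the summed ratio was 0.823. From 4 to 6 dpw all 9 genes were higher, by a summed ratio of 1.73 [1.71, 1.74], and 2 of 9, junbb (2.70) and atf3 (2.56), were past 2-fold (background 7.75%).

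**Figure D2:**
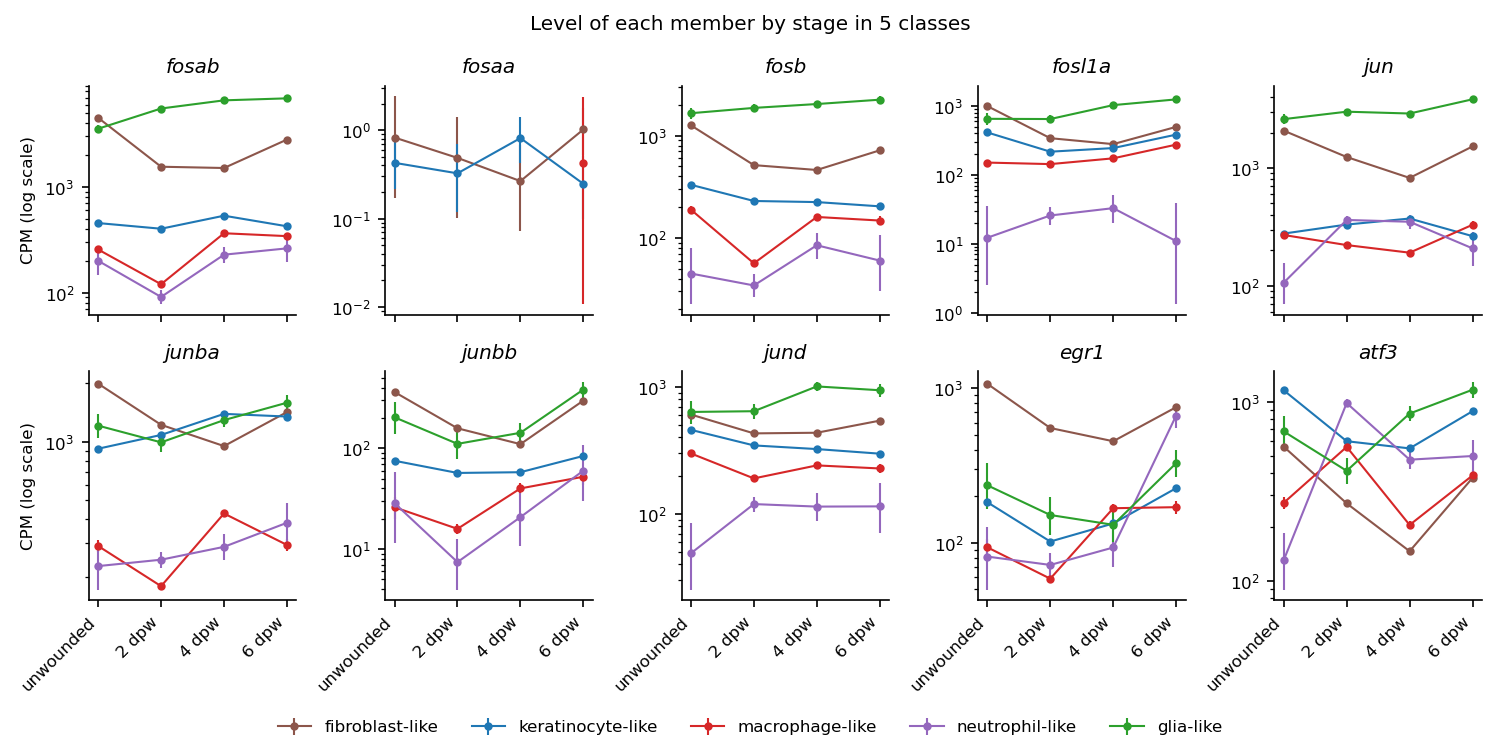
Level of each of the 10 genes (CPM, logarithmic axis) by stage in 5 cell classes, 1 panel per gene, with 95% counting intervals. In fibroblast-like cells fosab stands at 4505 CPM in unwounded skin, 1551 CPM at 2 dpw and 1509 CPM at 4 dpw, while atf3 in neutrophil-like cells stands at 981 CPM at 2 dpw, against 131 CPM in unwounded skin.

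Other measures moved with these levels in fibroblast-like cells. Keratinocyte markers, which fibroblasts should lack, were detected for 14 of 14 genes in each library and summed to 6473, 2480, 1858 and 5941 CPM across unwounded skin and wounds of 2, 4 and 6 dpw, lowest where the members were lowest. Keratinocyte-like cells themselves held 3370.4 to 4268 CPM of the members, less than the fibroblast-like cells of any library, but atf3 went the other way. Over all libraries atf3 had 847 CPM in keratinocyte-like and 282 CPM in fibroblast-like cells, whereas every other member was higher in fibroblast-like cells. This order did not hold in each library: at 4 dpw junba was also higher in keratinocyte-like than in fibroblast-like cells. Macrophage markers summed to 40.8, 203, 50.3 and 21.9 CPM, with csf1rb, mfap4 and mrc1b at 0 in unwounded skin, and haemoglobin genes to 532, 649, 799 and 1301 CPM. The fibroblast markers, mostly collagens, summed to 21657, 21987, 78098 and 76664 CPM, and dividing-cell genes were called higher for 5 of 6 at 2 dpw. The 25 heat shock genes summed to 28125, 17810, 13092 and 17034 CPM. The part of these measures in the member ratios was not tested.

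The 4 clusters of fibroblast-like cells did not move alike. The largest in unwounded skin (407 of 1265 cells at 4 dpw, 372 of 648 in unwounded skin) held 13345, 5620, 7073 and 8431 CPM of the 10 genes across unwounded skin and wounds of 2, 4 and 6 dpw. The cluster that was largest at 4 dpw (563 cells there, 113 in unwounded skin), led by ucmaa, angptl7, matn4, cilp2 and comp, several of them genes of cartilage matrix, held 15116, 9090, 5392 and 9542 CPM. A cluster led by ntn1b, tnc and col11a1a was lowest at every stage, with 7284, 1876, 1992 and 4769 CPM, and its fosab level was 2629, 316, 421 and 1642 CPM. In the fourth cluster, led by fgl2b, neu3.5, clec19a and vcana, the level was 16331, 11455, 17328 and 24999 CPM, so that it was lower than in unwounded skin at 2 dpw only and highest at 6 dpw. With every cluster weighted equally, the class ratios were 0.538, 0.610 and 0.917.

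**Figure D3:**
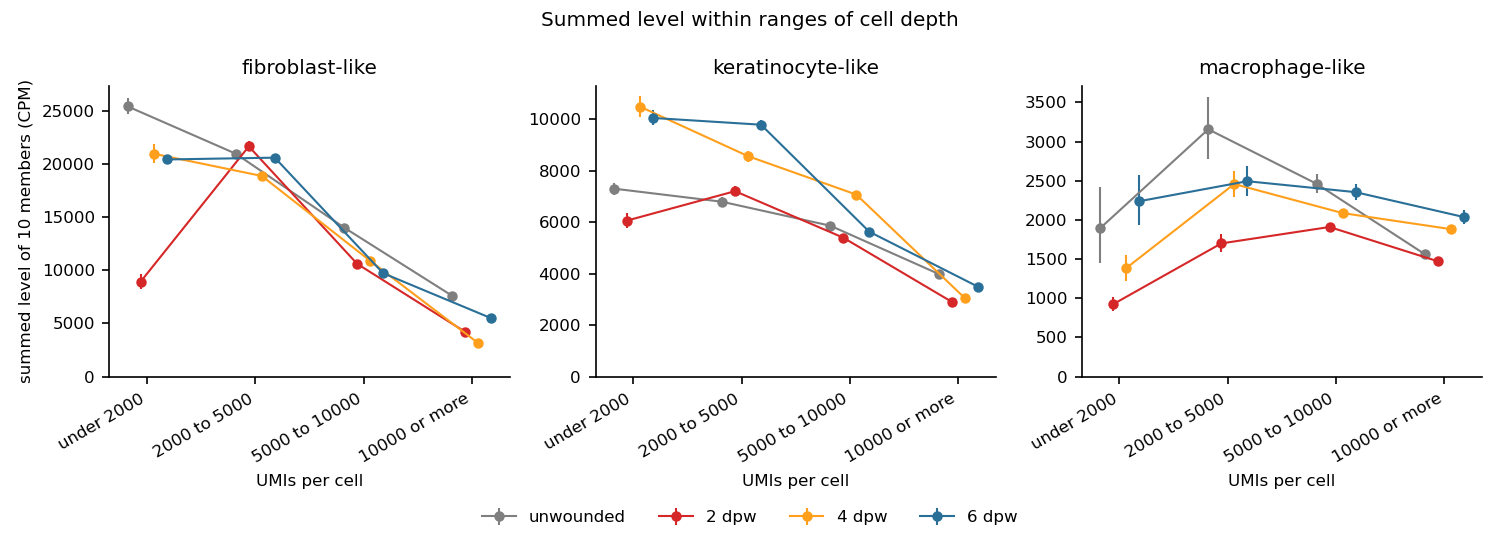
Summed level of the 10 genes (CPM) in cells of 4 ranges of UMIs per cell, by stage, for keratinocyte-, fibroblast- and macrophage-like cells. In fibroblast-like cells the level is lowest among cells of 10000 or more UMIs in every library, and the share of cells with 10000 or more UMIs was 14.4% in unwounded skin and 48.2%, 53.1% and 27.3% at 2, 4 and 6 dpw.

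Within a library, deeper fibroblast-like cells carried a smaller share of the 10 genes. From the shallowest to the deepest tercile of cells, the level was 25985, 18245 and 9929 CPM in unwounded skin and 16779, 6056 and 2587 CPM at 4 dpw. Among cells of 10000 or more UMIs the wounds remained lower, with 7590, 4197, 3139 and 5488 CPM across unwounded skin and wounds of 2, 4 and 6 dpw (93, 266, 672 and 444 cells). Among cells of 2000 to 5000 UMIs the libraries were close, with 20971, 21660, 18879 and 20600 CPM. Mitochondrial share, which also differs between libraries, changed the class ratios less: with 3 ranges of mitochondrial share weighted equally they were 0.477, 0.442 and 0.678.

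Keratinocyte-like cells, the epithelial cells of the epidermis, had a sum within 2-fold of unwounded skin at each stage, and calls of single genes were near or below the background. The 10 genes together had 4268, 3370.4, 3832 and 4116 CPM across unwounded skin and wounds of 2, 4 and 6 dpw, with ratios of 0.790 [0.782, 0.798], 0.898 [0.889, 0.907] and 0.964 [0.956, 0.972]. No gene of 9 was past 2-fold at 2 dpw (background 6.55% lower and 13.4% higher), 1 of 10 at 4 dpw (background 6.36% lower and 8.44% higher) and none of 9 at 6 dpw (background 5.95% lower and 4.40% higher). The median log2 ratio was -0.41, -0.42 and -0.10, against 0.16, 0.01 and -0.15 for all genes. The sum did not keep its direction at 4 and 6 dpw: with equal UMI ranges the ratios were 0.901, 1.219 and 1.209.

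The gene called at 4 dpw was atf3, which had 1155, 601, 548 and 884 CPM in keratinocyte-like cells across unwounded skin and wounds of 2, 4 and 6 dpw. Its ratios were 0.520 [0.509, 0.532], 0.475 [0.463, 0.486] and 0.765 [0.752, 0.778], and over all alternatives its 4 dpw ratio lay between 0.463 and 0.582. Thinned shares of cells with an atf3 UMI were 30.9%, 19.8%, 19.3% and 27.3% (unthinned 68.2%, 58.6%, 57.7% and 66.4%), against 1.91% to 3.44% of T cell-like cells (unthinned 7.06% to 13.1%). Atf3 was highest in a cluster led by the sterol synthesis genes ebp, msmo1 and cyp51 (2477, 1754, 1294 and 1728 CPM) and in a cluster led by the keratin krt1-19d (2054, 1369, 965 and 1866 CPM). In both, the 3 wound libraries were below unwounded skin.

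Junba moved the other way in keratinocyte-like cells. It had 921, 1085, 1394 and 1349.9 CPM across unwounded skin and wounds of 2, 4 and 6 dpw, with ratios of 1.18 [1.16, 1.2], 1.51 [1.48, 1.54] and 1.47 [1.44, 1.49], below the 2-fold rule. Jund had 459, 346, 324 and 298 CPM and so was lower in each wound library, with ratios of 0.754, 0.706 and 0.649. Fosb was likewise lower in all 3 wounds, with 331, 229.8, 224 and 204 CPM. Jun had 277, 331, 372 and 264 CPM, highest at 4 dpw, and fosab 455, 402, 534 and 424 CPM, without a common direction. Egr1 was lowest at 2 dpw and highest at 6 dpw (183, 102.1, 134 and 226 CPM), and fosl1a was lowest at 2 dpw (411, 216, 244 and 383 CPM). Junbb had 75.3, 57, 57.9 and 84 CPM.

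The clusters of keratinocyte-like cells held different shares of the class at each stage: the one with krt17 among its leading genes was largest at 4 and 6 dpw and in unwounded skin, and the one led by mmp30, ccl25a and cldn1 was largest at 2 dpw. In the cluster led by icn2, krt96 and krt97, junba had 906, 1426, 1842 and 1714 CPM across unwounded skin and wounds of 2, 4 and 6 dpw, whereas in the krt1-19d cluster it had 1071, 868, 891 and 877 CPM, so junba was not higher in wounds in every cluster. Layer markers moved as well: 3 of 8 basal genes were called higher and 2 of 7 superficial genes lower at 2 dpw, and 5 of 6 dividing-cell genes higher. Fibroblast markers in these cells summed to 207, 907, 1009 and 750.1 CPM, and their part in the member levels was not tested.

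Macrophage-like cells at 2 dpw, when they were most numerous (259 cells in unwounded skin and 1911, 926 and 381 at 2, 4 and 6 dpw), had more atf3 and less fosab and fosb than in unwounded skin. Atf3 had 273, 559, 205 and 387 CPM across unwounded skin and wounds of 2, 4 and 6 dpw, and its ratio at 2 dpw was 2.05 [1.90, 2.22]. Fosab had 256, 120.0, 364 and 342 CPM, with a ratio of 0.469 [0.429, 0.514] at 2 dpw, and fosb had 189, 56.5, 160.3 and 148 CPM, with a ratio of 0.299 [0.268, 0.334]. These 3 of 9 genes were the calls at 2 dpw (background 12.5% higher and 10.5% lower), none of 9 was called at 4 dpw (background 10.4% and 7.96%), and 1 of 9, junbb at 2.01 [1.48, 2.76], at 6 dpw (background 7.19% higher). With equal UMI ranges atf3 stood at 1.58, fosab at 0.439 and fosb at 0.276. With equal mitochondrial ranges 1 of these 3 calls remained, fosb at 0.416, while fosab stood at 0.620 and atf3 at 1.97. The thinned share of cells with an atf3 UMI was 10.0%, 17.1%, 7.02% and 9.71% (unthinned 44.4%, 53.9%, 26.2% and 34.4%).

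From 2 to 4 dpw the pattern turned round in macrophage-like cells: 5 of 9 genes were called higher (background 6.76%) and atf3 was called lower (background 5.78%). Fosab was 3.04-fold [2.86, 3.22] higher at 4 dpw, egr1 2.85-fold, fosb 2.84-fold, junbb 2.52-fold and junba 2.37-fold, whereas the atf3 ratio was 0.367 [0.347, 0.388]. The remaining genes had smaller differences. Jun had 269.7, 221, 191 and 329.5 CPM across unwounded skin and wounds of 2, 4 and 6 dpw, jund 299, 190.4, 241 and 228 CPM, and fosl1a 150.5, 143, 173 and 274 CPM. Junba had 290.1, 180.0, 427 and 294 CPM, egr1 93.6, 58.7, 168 and 170.2 CPM and junbb 26, 15.9, 40 and 52.3 CPM. Cluster 0, which held most macrophage-like cells in each library (135 cells in unwounded skin and 1119, 575 and 231 at 2, 4 and 6 dpw), had 265, 592, 182 and 274 CPM of atf3 and 235, 132, 435 and 398 CPM of fosab, the same order of stages as in the class for both. In a single macrophage-like cell at 6 dpw lay 17.7% of the fosab UMIs and in one 16% of the jun UMIs, so these 6 dpw levels rest in part on few cells.

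Markers of other cells also differed between the macrophage-like libraries. Keratinocyte markers summed to 1698, 1132, 817 and 1913 CPM across unwounded skin and wounds of 2, 4 and 6 dpw, T cell markers to 1021, 437, 424 and 550.3 CPM and fibroblast markers to 76, 171, 1241 and 1724 CPM. Macrophage markers themselves summed to 7341, 6301, 7378 and 6068 CPM. Fosab, fosb and the keratinocyte markers were lower at 2 dpw than in unwounded skin, while atf3 was higher there, and the part of the other cells' RNA was not tested.

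Neutrophil-like cells were few in unwounded skin (56 cells with 216 UMIs of the 10 genes), so their ratios are wide. Atf3 was 7.51-fold [5.3, 11.02] higher at 2 dpw, 3.63-fold at 4 dpw and 3.81-fold at 6 dpw, with 131, 981, 474 and 497 CPM across unwounded skin and wounds of 2, 4 and 6 dpw. Jun, with 106, 362, 349 and 207 CPM, was 3.41-fold [2.31, 5.26] and 3.29-fold [2.18, 5.17] higher at 2 and 4 dpw and 1.96-fold at 6 dpw. Fosab had 199.9, 90.9, 228 and 262 CPM, with a ratio of 0.455 [0.328, 0.640] at 2 dpw, the same direction as in macrophage-like cells. Egr1 was past 2-fold at 6 dpw, where 71 cells held 122 egr1 UMIs and the ratio was 8.16 [5.06, 13.8] (81.6, 72.1, 93.4 and 666 CPM). Genes called higher and lower numbered 4 and 2 of 9 at 2 dpw (background 28.9% and 5.76%), 4 and 0 of 8 at 4 dpw (background 25.9% and 3.68%) and 3 and 0 of 7 at 6 dpw (background 18.5% and 5.91%). Their median log2 ratio was 0.11, 1.07 and 0.97 at 2, 4 and 6 dpw, against 0.45, 0.44 and 0.21 for all genes tested. All genes of this class thus lay higher in the wounds by their median, and at 2 dpw the members lay below that median. The fosl1a calls at 2 and 4 dpw rest on few UMIs, with intervals of 0.675 to 10.6 and 0.791 to 14.2. Keratinocyte markers summed to 2228, 1389, 1393 and 2730 CPM in neutrophil-like cells across unwounded skin and wounds of 2, 4 and 6 dpw, and haemoglobin genes to 502, 2921, 8922 and 4149.6 CPM. Erythrocyte-like cells held 71.4 to 242 CPM of atf3, less than any neutrophil-like wound library. Keratinocyte-like cells held 847 CPM of atf3 over all libraries, against 767 CPM in neutrophil-like cells. At 2 dpw, however, keratinocyte-like cells held less atf3 than the 981 CPM of neutrophil-like cells. The part of other cells' RNA in these levels was not tested. Thinned shares of neutrophil-like cells with atf3 were 5.36%, 33.4%, 18.1% and 12.7% (unthinned 25%, 73.3%, 44.1% and 42.3%).

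**Figure D4:**
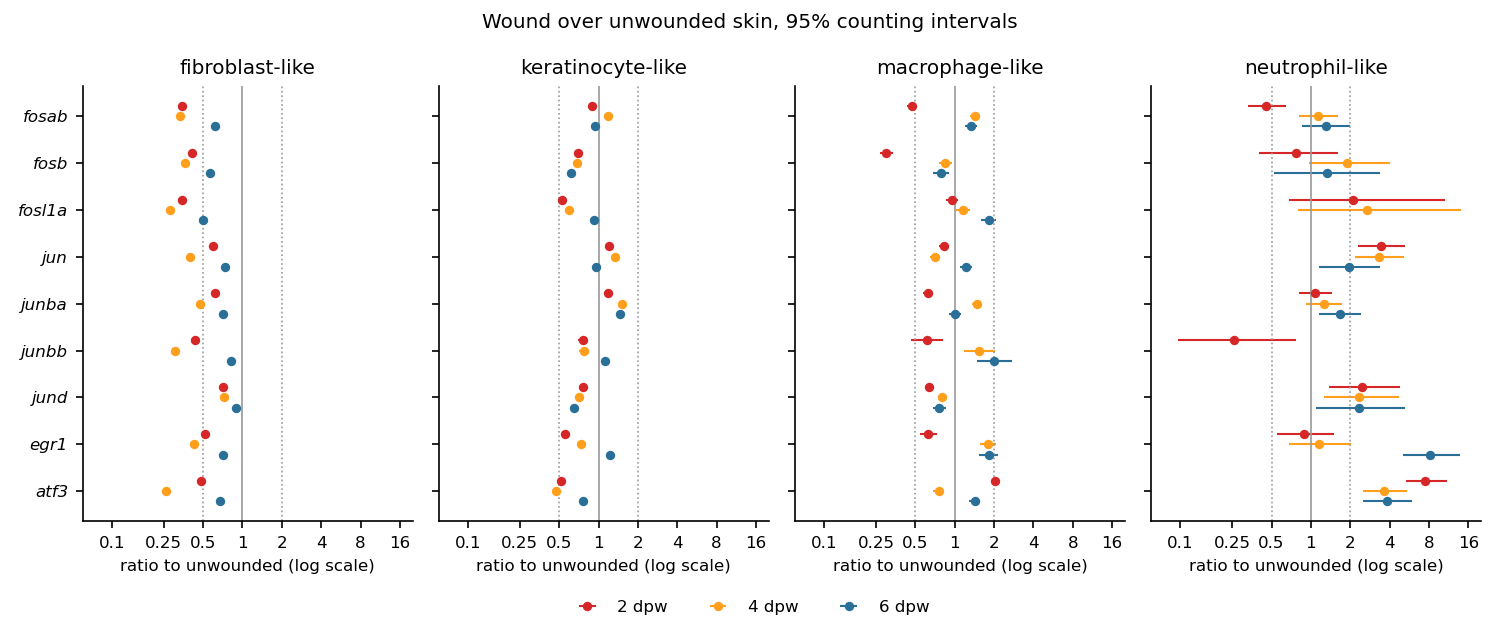
Ratio of each gene in wounds at 2, 4 and 6 dpw over unwounded skin (logarithmic axis) in the main cell classes, for genes with at least 20 UMIs over both libraries, with 95% counting intervals and lines at 2-fold either way. The atf3 ratio at 2 dpw stands at 7.51 in neutrophil-like and 2.05 in macrophage-like cells and at 0.520 in keratinocyte-like and 0.483 in fibroblast-like cells.

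In T cell-like cells the level was low, and 3 of 9 genes were past 2-fold lower at 2 dpw (background 3.72%): fosab (0.462 [0.400, 0.533]), fosb (0.450 [0.358, 0.561]) and fosl1a (0.381 [0.260, 0.546]). Fosab had 179, 82.8, 157 and 178 CPM across unwounded skin and wounds of 2, 4 and 6 dpw, so that only the 2 dpw library stood apart. The summed ratios were 0.635, 0.811 and 0.922. Egr1 was 3.35-fold [2.60, 4.34] higher at 4 dpw than at 2 dpw (background 2.73%). Ratios of fosab and fosb at 2 dpw were thus past 2-fold lower in fibroblast-, macrophage- and T cell-like cells. In keratinocyte-like cells they were 0.884 and 0.695. T cell-like cells are among the classes that set the detection background for fosab, and macrophage-like cells at 2 dpw were at it. The part of other cells' RNA in their low levels was not tested. All these ratios share the 2 dpw and the unwounded library and are not independent.

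Glia-like cells, which wrap the nerves of the skin, were among the highest in fosab and had more of it in the wounds than in unwounded skin. Their fosab level was 3550.3, 5515, 6588 and 6882 CPM across unwounded skin and wounds of 2, 4 and 6 dpw, with ratios of 1.55 [1.41, 1.71], 1.86 [1.69, 2.04] and 1.94 [1.76, 2.13]. Jun had 2607, 3016, 2910.0 and 3844 CPM in these cells. No gene passed 2-fold over unwounded skin (background 13.3%, 12.5% and 10.9% higher), and unwounded skin held 52 glia-like cells. The summed ratios were 1.17, 1.40 and 1.63. With classes set by marker counts per cell they were 0.80, 0.97 and 1.1, the direction at 2 and 4 dpw being the other. That naming left 21 glia-like cells in unwounded skin, under the minimum of 50, so these alternative ratios rest on few cells. Median depth in these cells was 1953, 1056, 1239 and 1052 UMIs across unwounded skin and wounds of 2, 4 and 6 dpw, and with equal UMI ranges the summed ratios were 1.04, 1.25 and 1.26. Haemoglobin genes summed to 891, 4440.3, 3341 and 3272 CPM and macrophage markers to 19.7, 606, 32.7 and 22.5 CPM. The part of these measures in the member levels was not tested.

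The mural-like cells were 2 clusters of unlike content. Cluster 28, led by acta2, a smooth muscle actin, and rasl12, carried 9 mural markers. Cluster 26, led by cdh15, hsp90aa1.1, plaub, itga6a and col18a1b, carried 4 mural and 3 fibroblast markers and held 60, 196 and 122 of the 134, 343 and 249 cells at 2, 4 and 6 dpw, so its name is uncertain. Together they had 4813, 6218 and 17494 CPM of the 10 genes, and their fibroblast markers summed to 8683, 25129 and 18012 CPM. From 4 to 6 dpw 8 of 9 genes were called higher (background 8.11%), fosab by 3.51-fold [3.39, 3.64] with 1792, 2056 and 7225 CPM at 2, 4 and 6 dpw. Median depth moved with this, at 3370.5, 7602 and 2104 UMIs, and the summed ratio of 2.81 became 1.18 with equal UMI ranges. At 2, 4 and 6 dpw cluster 28 had 7555, 14906 and 41545 CPM and cluster 26 had 3241, 3529 and 8188 CPM, each highest at 6 dpw. Endothelial-like cells, the lining of the vessels, had 8769, 12069 and 17219 CPM at 2, 4 and 6 dpw, and 1 gene, egr1 at 2.02 from 2 to 4 dpw, was past 2-fold (background 4.08%). Unwounded skin held under 50 cells of either class, so no ratio to it was taken. Its 44 endothelial-like cells had 15751 [15009, 16520] CPM and its 48 mural-like cells 17652 [17107, 18210] CPM. Those 48 mural-like cells were 37 of cluster 26 and 11 of cluster 28, against 122 and 127 at 6 dpw. Median mitochondrial share of endothelial-like cells was 11.4% in unwounded skin and 6.72%, 7.36% and 7.67% at 2, 4 and 6 dpw. The unwounded levels of both classes are therefore not compared with those of the wounds.

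In osteoblast-like cells, which form scale bone, the 10 genes had 3244 CPM at 6 dpw and 7492 CPM in unwounded skin, and 5 of 9 were called lower (background 13.2%), fosab at 0.340 [0.317, 0.363]. That ratio of 0.433 for the sum was 0.92 with equal UMI ranges. With classes set by marker counts it was 1.383, but on 10 cells in unwounded skin and 4 at 6 dpw. In erythrocyte-like cells jun held the most UMIs of the fos and jun genes, with 667, 1241, 869 and 887 CPM across unwounded skin and wounds of 2, 4 and 6 dpw and a thinned share of 25.6%, 41.7%, 35.8% and 28.0% of cells (unthinned 36.9%, 51.4%, 45.6% and 38.5%), against 6.58% to 9.62% of T cell-like cells (unthinned 23.2% to 24.7%). At 6 dpw 3 of 9 genes, fosab (3.6 [2.36, 5.72]), fosb (6.91) and junba (2.63), were called higher in them (background 12%). At 4 dpw 2 of 9, fosab and fosb, were called higher (background 8.69%). At 2 dpw 1 of 8, fosb, was called higher and 2, fosl1a and egr1, lower (background 20.6% and 4.31%). Unwounded erythrocyte-like cells held 307 UMIs of the 10 genes, so these ratios rest on few UMIs. The mucous-like cells were 1 cluster whose leading genes held muc5.2 and agr2, genes of mucus, but also gng13a, hmx3a and avil. Clustering without integration placed a mucous-like cluster of 255 cells apart from a cluster with hmx3a and avil, so these 719 cells are not all shown to be mucus cells. In them egr1 was called lower at 2 dpw (0.404; background 8.38%) and fosb at 4 dpw (0.467; background 6.74%).

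The shares of the fos and jun mRNAs differed by class, and the proteins were not measured. Of the UMIs of the 8 fos and jun genes, the Fos genes held 57.3%, 44.1%, 49.2% and 51.5% in fibroblast-like cells across unwounded skin and wounds of 2, 4 and 6 dpw, a ratio of Fos to Jun UMIs of 1.34, 0.788, 0.969 and 1.06. In keratinocyte-like cells the Fos share was 40.9%, 31.8%, 31.8% and 33.6%, and junba alone held 31.4%, 40.7%, 44.2% and 44.9%, so that the 3 wound libraries lay above unwounded skin for junba. Macrophage-like cells had a Fos share of 40.2%, 34.5%, 43.7% and 45.8%, and neutrophil-like cells one of 38.4%, 17%, 31.0% and 30.3%. In glia-like cells the Fos share was 55.7%, 62.8%, 64.3% and 60.5%, higher in the wounds. The Fos share was lower at 2 dpw than in unwounded skin in fibroblast-, keratinocyte-, macrophage-, neutrophil- and T cell-like cells (T cell-like 32.1%, 22.7%, 31.1% and 31.0%). In erythrocyte-like cells jun alone held 58.6%, 68.5%, 58.4% and 41.3%.

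**Figure D5:**
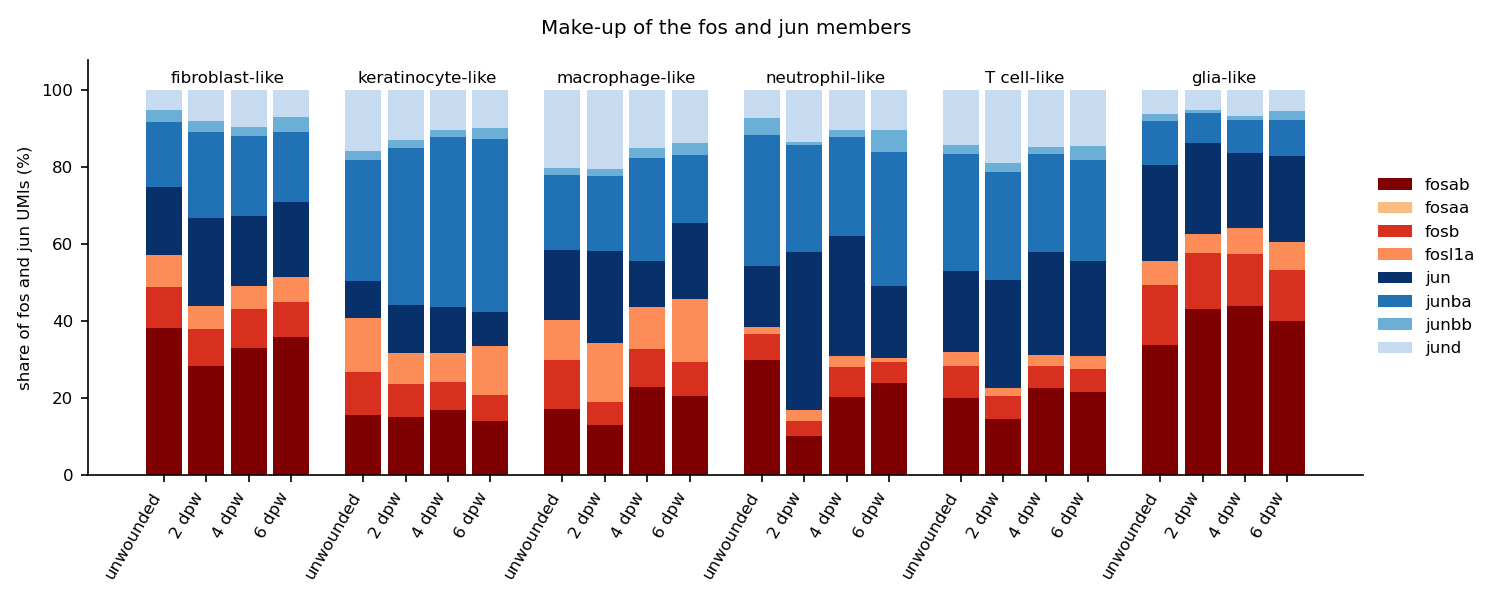
Share of each of the 8 fos and jun genes in their summed UMIs (percent) by stage in 6 cell classes, as stacked bars that add to 100%. Junba takes 44.9% in keratinocyte-like cells at 6 dpw and 31.4% in unwounded skin, and the Fos genes take 44.1% in fibroblast-like cells at 2 dpw and 57.3% in unwounded skin.

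In the pairs given here, the other gene was detected more often in cells with fosab than in cells without it, though for atf3 only slightly. Pairs of genes outside the 10 were not counted, so these shares have no reference. In fibroblast-like cells of unwounded skin thinned to 500 UMIs, jun was detected in 62.2% of cells with fosab and 17.8% of cells without fosab, and egr1 in 42.4% and 13.6%. At 4 dpw, jun was in 60.4% of fibroblast-like cells with fosab and 10.4% of those without. In keratinocyte-like cells at 4 dpw, fosb was in 43.0% of cells with fosab and 8.94% of those without, while atf3 was in 21.0% and 18.8%, so atf3 went little with fosab there. In macrophage-like cells at 2 dpw, fosb was in 12.4% of cells with fosab and 1.21% of those without. At least 5 of the 10 genes were detected in 12.7% to 26.5% of thinned fibroblast-like cells, 3.95% to 6.05% of keratinocyte-like cells and 0.314% to 1.16% of macrophage-like cells.

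Other early response genes moved with the members in fibroblast-like cells. Of a list of other immediate-early and early response genes, 14 of 41 tested were called lower and none higher at 2 dpw, 20 of 42 lower and none higher at 4 dpw, and 11 of 42 lower and 1 higher at 6 dpw, with median log2 ratios of -0.71, -0.99 and -0.29. Of all genes tested in these cells 11.9%, 18.4% and 12.4% were lower and 11.2%, 10.6% and 7.73% higher. Their median log2 ratios were 0.01, -0.19 and -0.17. Ccn1, which encodes a matrix protein secreted by fibroblasts, had 3044.9, 1134, 931 and 1462 CPM across unwounded skin and wounds of 2, 4 and 6 dpw, with ratios of 0.372, 0.306 and 0.480. Mcl1a, a survival gene of the Bcl-2 family, had ratios of 0.617, 0.60 and 0.844, and klf2b, a Krüppel-like factor gene, had 60.6, 18, 11 and 14.7 CPM. The largest ratios belonged to other genes at each stage, such as egr3, with 39.4, 22.2, 76.7 and 65.5 CPM, and gadd45bb, a growth arrest gene, with ratios of 1.96, 1.58 and 1.98.

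Of the other AP-1 and related bZIP genes (35 of 38 listed were in the files), 6 of 28, 11 of 29 and 4 of 28 were called lower in fibroblast-like cells at 2, 4 and 6 dpw, and 3, 4 and none higher. Jdp2b, whose protein binds Jun and represses AP-1 targets, was the most abundant, with 2710.6, 1134, 952 and 1625 CPM and ratios of 0.418, 0.351 and 0.599, close to those of fosb. Cebpd, a C/EBP factor gene, had ratios of 0.314, 0.254 and 0.403. Mafbb went the other way, with ratios of 9.56, 5.06 and 1.62 on 4 UMIs in unwounded skin. Of the MAPK feedback inhibitors 4, 4 and 1 of 13 were lower and none higher. Dusp1, a MAP kinase phosphatase that is itself an early gene, had 596, 379, 263 and 348 CPM, whereas dusp5, a phosphatase of ERK, had 864, 892, 835 and 1374 CPM. Of the upstream serum response and MAPK factors, none of 16, 4 of 19 and 3 of 20 were lower and 1, none and none higher, with crebbpb, a coactivator gene, at ratios of 1.13, 0.942 and 1.05. Of all genes tested 11.9%, 18.4% and 12.4% were lower and 11.2%, 10.6% and 7.73% higher in these cells, so the upstream factors were near or below the background.

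Tissue handling can also induce heat shock genes. In fibroblast-like cells 6, 8 and 5 of 25 were lower and 3, 3 and 2 higher at 2, 4 and 6 dpw. Of all genes tested 11.9%, 18.4% and 12.4% were lower and 11.2%, 10.6% and 7.73% higher, so the higher calls were near the background. Hsp70.1 had 1669.9, 427, 269.7 and 669 CPM across unwounded skin and wounds of 2, 4 and 6 dpw, with ratios of 0.255, 0.162 and 0.401. Hsp90aa1.1 went the other way, with ratios of 8.94, 14.7 and 3.70 on 5 UMIs in unwounded skin. So did hspb11, with ratios of 6.99, 7.68 and 7.37 on 8 UMIs in unwounded skin. The hsp70 genes are near-identical copies, so how reads were divided among them is uncertain. The constitutive chaperone gene hspa8 had ratios of 1.2, 1.12 and 1.03. In macrophage-like cells hsp70.2 had 1136, 348, 294 and 912 CPM. The part of handling in the member levels was not tested.

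In keratinocyte-like cells the early response list was called lower for 7 of 42, 5 of 41 and 3 of 41 genes and higher for 1, 2 and 2, where 6.55%, 6.36% and 5.95% of all genes were lower and 13.4%, 8.44% and 4.40% higher. Klf2b had 359.9, 112, 159 and 209 CPM across unwounded skin and wounds of 2, 4 and 6 dpw, and klf4, a factor of epithelial differentiation, had ratios of 0.331, 0.258 and 0.344, while socs3b, an inhibitor of cytokine signalling, had 3.81, 24.5, 17.2 and 12.7 CPM. The phosphatase gene dusp2 was higher in the wounds, with ratios of 2.19, 1.61 and 2.01, and 4, 2 and 3 of 13 MAPK feedback inhibitors were called higher. Cebpb, the most abundant bZIP gene there, had ratios of 1.11, 1.09 and 1.16. The bZIP list had 2, none and 2 genes lower and 1 higher at each stage, of 31, 30 and 31. Of the upstream factors, none of 20 was called at 2 and 6 dpw and 1 of 20 was lower at 4 dpw, srfa, a serum response factor gene, at 0.485.

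In macrophage-like cells the early response list was called lower for 10 of 39, 4 of 39 and 4 of 37 genes and higher for 1, 4 and 5. Of all genes tested 10.5%, 7.96% and 8.13% were lower and 12.5%, 10.4% and 7.19% higher, so at 4 and 6 dpw the lower calls were close to the background. Nr4a2b, an orphan nuclear receptor gene, had 59.6, 2.42, 1.15 and 9.27 CPM across unwounded skin and wounds of 2, 4 and 6 dpw, a ratio of 0.0406 at 2 dpw. Nfkbiaa, an inhibitor of NF-κB, had 1685, 2127, 1600 and 909 CPM. Jdp2b was low at 2 dpw, as fosab was, with 268, 63.6, 159.7 and 194 CPM and a ratio of 0.237. The macrophage bZIP genes mafba and mafbb had ratios at 2 dpw of 1.06 and 0.566.

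The genes whose level followed fosab most closely were ranked by Pearson's r of log2(CPM + 10) over 42 class and stage combinations of at least 50 cells, which share 4 libraries and their depths, so r is a description. Of 13957 genes, jdp2b, which encodes a Jun dimerization protein, had the highest r at 0.976, above every other AP-1 gene. It was followed by mycb (0.952), a Myc gene, fam168a (0.951), the antiproliferative early response gene btg2 (0.946) and cbx7a (0.932), a Polycomb protein gene. Then came myo9aa (0.928), smad1 (0.927), which carries BMP signals, the unnamed genes si:ch211-178n15.1 (0.923) and si:ch73-46j18.5 (0.922), and ppfibp1b (0.922). Among the other members r to fosab was 0.944 for fosb, 0.922 for junbb, 0.880 for fosl1a, 0.872 for junba, 0.854 for jun, 0.833 for jund, 0.744 for egr1, 0.519 for atf3 and 0.337 for fosaa. Atf3 was thus, fosaa with its 76 UMIs aside, the member that followed fosab least.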

How the data were processed

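Skin cells of 4 libraries (10x Genomics 3′ v3.1 chemistry) were aligned by the authors with Cell Ranger 6.1.2, and the submitters' processing notes name GRCz11 and Seurat 4.3.0. The authors deposited raw counts of UMIs per gene and cell, not normalized. Cells with 500 to 30000 UMIs, 200 to 4500 genes and under 25% mitochondrial UMIs were kept, the limits stated for the study.

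Libraries were normalized (sctransform 0.4.2), integrated and clustered (Seurat 5.3.0, R 4.3.3, 17 dimensions, resolution 1) on 3431 of 3500 features, leaving out the 10 members and the genes of the lists described. The keratinocyte layer and dividing-cell lists were not left out. A cluster was named when at least 3 markers of 1 class were in at least 10% of its cells at 2-fold or more over the other cells, unless its leading genes held more markers of another class or it was shallow with none of the class's markers leading. UMIs were summed per class and library, and classes with at least 50 cells in both libraries were compared (Python 3.11.15, scipy 1.17.1, scanpy 1.11.5). The alternative classes by marker count had no such minimum. Intervals were exact Poisson, conditional binomial or Clopper-Pearson at 95%. The scripts were checked on simulated data.

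The members and lists were chosen with earlier results of these data known. Named genes are all members and the 10 genes most like fosab with at least 200 UMIs. Others were drawn, per list and main class, from the 3 genes with most UMIs and those with the largest and smallest ratio on at least 50 UMIs. The lists were other AP-1 and related bZIP genes (35 of 38 found), other early response genes (43 of 47), MAPK feedback inhibitors (15), upstream factors (21), heat shock genes (25), and keratinocyte layer and dividing-cell markers. Alternatives changed the cell filters (10% mitochondrial share, 1000 UMIs), the classes, the clustering, the scaling (edgeR 4.0.16), the weighting of cells and clusters, Scrublet scores and the fold (1.5) and UMI (50) limits. Equal UMI and mitochondrial ranges were added after seeing the data.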

Additional observations from a re-analysis of the deposited data

Results flagged for a closer look

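With at least 20 UMIs in each library and a counting interval that leaves out 1, 4 of the 10 genes were past 2-fold in opposite directions in different cell classes at the same wound stage. These differences between classes were not tested, since each stage is 1 library. How many of all genes met the same rule was not counted, so 4 of 10 has no background. At 4 dpw, 29% of all genes tested in fibroblast-like and 29.6% in neutrophil-like cells were past 2-fold in either direction. Atf3 at 2 dpw had ratios to unwounded skin of 2.05 in macrophage-like and 7.51 in neutrophil-like cells, and of 0.483 in fibroblast-like cells. At 4 dpw the atf3 ratio was 3.63 in neutrophil-like cells, 0.261 in fibroblast-like cells and 0.475 in keratinocyte-like cells. Jun at 4 dpw had a ratio of 3.29 in neutrophil-like cells and 0.396 in fibroblast-like cells, the last of which turned to 1.015 with equal UMI ranges. Fosab at 4 dpw had a ratio of 2.14 in erythrocyte-like cells and 0.335 in fibroblast-like cells. At 6 dpw the fosab ratio was 3.6 in erythrocyte-like cells and 0.340 in osteoblast-like cells. Egr1 at 6 dpw had a ratio of 8.16 in neutrophil-like cells and 0.416 in osteoblast-like cells. Several of these ratios were not past 2-fold with equal UMI ranges: atf3 was 1.58 in macrophage-like and 0.832 in fibroblast-like cells at 2 dpw and 0.549 in keratinocyte-like cells at 4 dpw, and fosab was 0.795 in fibroblast-like cells at 4 dpw, whereas atf3 in fibroblast-like cells at 4 dpw was 0.485. The summed ratio of osteoblast-like cells, 0.433, was 0.92 with equal UMI ranges. It was 1.383 with classes set by marker counts, on 10 cells in unwounded skin and 4 at 6 dpw. Erythrocyte-like cells, with fosab in 4.25% to 7.77% of thinned cells, are among the classes that set the detection background for fosab. The neutrophil- and erythrocyte-like ratios rest on shallow cells (median 2551 to 3796.5 and 749.5 to 928 UMIs) and on 56 and 168 cells in unwounded skin.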

How the results depend on the processing

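The summed ratios to unwounded skin are given at 2, 4 and 6 dpw in that order. In keratinocyte-like cells (0.790, 0.898, 0.964) they were 0.765, 0.836 and 0.930 with a 10% mitochondrial limit, 0.766 at 2 dpw with classes by marker count, 0.816, 0.911 and 0.980 with pooled clustering, 0.709, 0.886 and 1.068 with TMM scaling, 0.780, 0.922 and 1.004 with totals without haemoglobin, mitochondrial and ribosomal genes, 0.871, 1.130 and 1.098 per cell, 0.854, 0.992 and 1.019 per cluster, 0.802 and 0.881 (2 and 4 dpw) without the top Scrublet scores, 0.901, 1.219 and 1.209 with equal UMI ranges, and 0.809, 1.001 and 1.016 with equal mitochondrial ranges. In fibroblast-like cells (0.468, 0.385, 0.666) the same alternatives gave 0.475, 0.380 and 0.639, then 0.486, 0.417 and 0.677, then 0.432, 0.359 and 0.634, then 0.476, 0.457 and 0.750, then 0.505, 0.390 and 0.651, then 0.527, 0.502 and 0.726, then 0.538, 0.610 and 0.917, then 0.447, 0.372 and 0.651, then 0.667, 0.792 and 0.827, then 0.477, 0.442 and 0.678. In macrophage-like cells (0.836, 1.07, 1.21) values that moved were 0.887 at 2 dpw by marker count, 0.801 and 1.134 (2 and 4 dpw) with pooled clustering, 1.104 at 4 dpw with TMM, 1.158 at 4 dpw with reduced totals, 0.741, 0.947 and 1.140 per cell, 0.979 and 1.342 (4 and 6 dpw) per cluster, 1.066 at 6 dpw without the top Scrublet scores, 0.662, 0.861 and 1.006 with equal UMI ranges, and 0.882 and 1.040 (2 and 6 dpw) with equal mitochondrial ranges. The cause of these moves was not tested.

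Counts of genes past the limit at 2, 4 and 6 dpw were 0, 1 and 0 in keratinocyte-like, 5, 8 and 1 in fibroblast-like and 3, 0 and 1 in macrophage-like cells. A 1.5-fold limit gave 3, 4 and 2 in keratinocyte-like cells, 8 and 3 (2 and 6 dpw) in fibroblast-like cells and 7, 2 and 3 in macrophage-like cells. Equal UMI ranges gave 1 in keratinocyte-like cells at 2 dpw and 1, 1 and 0 in fibroblast-like cells. Equal mitochondrial ranges gave 0 in fibroblast-like cells at 6 dpw and 1 in macrophage-like cells at 2 dpw. The share of all genes past the limit was not counted for these alternatives. A 1.5-fold limit lets more genes of any kind pass, so these counts cannot be read against a background. Jun in fibroblast-like cells at 4 dpw reversed to 1.015 with equal UMI ranges. The osteoblast-like sum at 6 dpw reversed to 1.383 by marker count, on 10 unwounded and 4 wound cells. Of 19 called single-gene ratios in the 3 main classes, 19 kept their call with the 10% mitochondrial limit, 18 with a 1000 UMI minimum, with reduced totals or without the top cell, 16 with TMM, pooled clustering or without the top Scrublet scores, 15 by marker count, 12 with equal mitochondrial ranges, 11 per cell, 9 per cluster and 5 with equal UMI ranges. Equal UMI and mitochondrial ranges were chosen after seeing the data. No paired analysis was possible because each stage is 1 library. With 1 library of 3 pooled fish per stage, variation between fish was not measured, and genes with few UMIs, such as fosaa, limit what can be read from small classes.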

Other observations

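The 11 unnamed clusters held more of the 10 genes in every wound library than in unwounded skin, with 4359 CPM in unwounded skin and 6012, 7684 and 7542 CPM at 2, 4 and 6 dpw (ratios 1.38, 1.76 and 1.73). Fosab had 989 CPM in these cells in unwounded skin and 1889, 2543 and 2341 CPM at 2, 4 and 6 dpw. Of the 11, 7 had under 3 markers of any class, 2 were led by markers of another class and 2 were shallow, among them a cluster of 814 cells with 5 muscle markers. The largest unnamed cluster (1443 cells, 220 in unwounded skin and 512 at 2 dpw) had jac4 and krt94 among its leading genes. It carried 2 keratinocyte markers, under the 3 needed, and so is not part of the keratinocyte-like class.

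Eosinophil-like cells had at least 50 cells at 2 and 4 dpw only. The sum of the 10 genes was 1391 CPM at 4 dpw and 839 CPM at 2 dpw, with fosab at 336 and 123 CPM and atf3 at 58.3 and 49.0 CPM. Atf3 was thus far lower in them than the 981 CPM of neutrophil-like cells at 2 dpw, the other granulocyte class.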
